A study of Mus musculus with 24 samples.

Results

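The Sall genes encode zinc finger transcription factors, and the 4 mouse members, Sall1, Sall2, Sall3 and Sall4, were followed through 7 lists of histone mark peaks. A peak was counted at a Sall locus if it overlapped the mm10 gene body or the 200 kb on either side of it, and each such peak went to the nearest member. Of 368246 peaks in the 7 lists, 292 met this rule, with 38 at Sall1, 78 at Sall2, 85 at Sall3 and 91 at Sall4. The peaks came from chromatin immunoprecipitation and sequencing (ChIP-seq) of forelimb buds and of NIH3T3 fibroblasts, a cultured mouse line able to answer Hedgehog signals. Forelimb buds were taken at E10.5 (32 to 35 somites) on a Swiss Webster background, from wild-type (WT) embryos or from embryos homozygous for a null allele of Sonic hedgehog (Shh-/-), with 400000 cells per immunoprecipitation. By the study's methods the limb samples pooled several embryos, and the controls called WT held heterozygous littermates too. NIH3T3 cells, at 1000000 cells per immunoprecipitation, had received 400 nM purmorphamine, an agonist of the Hedgehog pathway, or its solvent DMSO for 48 h, and the labels name LIF for both. H3K27ac, a mark of active enhancers and promoters, was mapped in both genotypes and both treatments. H3K4me2, which marks promoters and enhancers whether or not they are acetylated, was mapped in both genotypes, and H3K27me3, the Polycomb mark of silenced genes, in Shh-/- limb buds.

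There were 24 libraries, 14 of them immunoprecipitations and 10 inputs (the unselected chromatin). Each list was called on the 2 replicates of a condition together, so no difference between lists has a replicate error, and none was given a p-value. Shares of peaks carry 95% Wilson intervals, which cover counting error only and treat neighbouring peaks of a locus as independent. Each of the limb H3K27ac and H3K4me2 lists was called against 1 input library, and limb buds and NIH3T3 cells were probed with different H3K27ac antibodies. Whole lists ranged from 20830 peaks (H3K27me3) to 90989 peaks (NIH3T3 with DMSO). The depth of the libraries is unknown from these lists. H3K27ac peaks stood at the starts of 6 of 6 limb mesenchyme genes in both genotypes, 0 of 4 ectoderm, 0 of 3 blood and 0 of 2 hindlimb genes. Endothelial genes had 1 of 3 in WT (Cdh5) and 0 of 3 in Shh-/-, and muscle precursor genes had 0 of 3 in WT and 2 of 3 in Shh-/- (Pax3 and Lbx1). The part of these cells in the differences at the Sall loci was not tested. In NIH3T3 cells 5 of 5 fibroblast genes had a peak in both treatments. Among Hedgehog targets, Gli1 and Ptch1 had H3K27ac at their starts in WT and not in Shh-/- limb buds. In NIH3T3 cells Gli1 had it with purmorphamine only, and Ptch1 in neither treatment. The Shh start had H3K4me2 in WT limb buds only and H3K27me3 in Shh-/- limb buds. Which part of Shh the null allele removes is not given in the sources used here.

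Sall proteins bind DNA through pairs of zinc fingers and repress many of their targets by bringing in the NuRD complex, which holds histone deacetylases and a chromatin remodeller. In the limb bud, Sall1, Sall3 and Sall4 are expressed in the mesenchyme, and Sall4 works with Tbx5 in the outgrowth and anterior patterning of the forelimb. Mutations of human SALL1 and SALL4 cause limb malformations of the thumb side of the hand (Townes-Brocks and Duane-radial ray syndromes), while Sall2 is best known in the nervous system and in growth control.

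All 4 genes lie on the minus strand of mm10. Sall1 was at chr8:89027235-89044162, with no other protein-coding gene in its window. Sall2 was at chr14:52311172-52328762 among 13 other protein-coding genes, and it has an upstream start at 52328762 and an internal start at 52316323. Sall4 was at chr2:168748332-168767943 with 3 others in its window. The 5′ end of the Sall4 gene belongs to a transcript without an annotated reading frame, and its complete coding transcripts start within the gene at 168767201 and 168767029. Sequences from RefSeq (GRCm38.p6) are given for Sall1 and for both starts of Sall2 to set an acetylated start beside one without acetylation. The runs are the bases directly before each start, 5′ to 3′ on the gene's strand, with CG dinucleotides in capitals, at chr8:89044163-89044412, chr14:52328763-52328920 and chr14:52316324-52316573.
Sall1 start: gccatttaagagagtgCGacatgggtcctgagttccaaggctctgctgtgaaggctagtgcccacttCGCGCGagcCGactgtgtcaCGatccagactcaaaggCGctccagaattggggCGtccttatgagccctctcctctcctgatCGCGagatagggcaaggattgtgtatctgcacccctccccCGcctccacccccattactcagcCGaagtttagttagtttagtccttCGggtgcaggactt
Sall2 upstream start: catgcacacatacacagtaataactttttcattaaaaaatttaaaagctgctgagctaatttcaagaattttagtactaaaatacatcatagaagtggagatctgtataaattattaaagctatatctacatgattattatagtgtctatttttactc
Sall2 internal start: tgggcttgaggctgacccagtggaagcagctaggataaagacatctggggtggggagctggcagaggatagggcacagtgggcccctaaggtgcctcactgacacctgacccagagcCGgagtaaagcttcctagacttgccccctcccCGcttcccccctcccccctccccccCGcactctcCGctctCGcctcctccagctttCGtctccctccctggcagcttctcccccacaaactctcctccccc
The first run, which lay under H3K27ac and H3K4me2 in WT and under H3K4me2 and H3K27me3 in Shh-/- limb buds, held 13 CG dinucleotides in 250 bases. The second run, at the H3K27me3-marked start of Sall2, held 0 in 158 bases and had a GC content of 25.3%, whereas the third run, at its internal start, which had acetylation within 1 kb, held 6 in 250 bases and had a GC content of 64.4%. Over the 300 bases of each RefSeq promoter, the upstream Sall2 start held 1 CG, fewer than most promoters (5.43% of 32851 promoters held fewer), and the internal start held 10 (56.5% held fewer). The 3 RefSeq promoters of Sall1 held 18, 27 and 39 (70.3%, 84.5% and 95.6% held fewer), and the run above belongs to the first.

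The strongest H3K27ac peaks of the Sall1 and Sall4 loci had their summits in introns. The 200 bases around the summit of each, on the plus strand (GRCm38.p6), are shown because these peaks had the largest losses of acetylation at their loci, at chr8:89041868-89042067 for Sall1 and chr2:168765793-168765992 for Sall4, again with CG in capitals.
Sall1 intronic summit: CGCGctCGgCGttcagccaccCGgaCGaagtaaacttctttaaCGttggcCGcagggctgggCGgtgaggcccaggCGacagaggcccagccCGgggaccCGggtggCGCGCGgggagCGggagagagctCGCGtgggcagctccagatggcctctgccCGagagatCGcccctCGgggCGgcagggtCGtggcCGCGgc
Sall4 intronic summit: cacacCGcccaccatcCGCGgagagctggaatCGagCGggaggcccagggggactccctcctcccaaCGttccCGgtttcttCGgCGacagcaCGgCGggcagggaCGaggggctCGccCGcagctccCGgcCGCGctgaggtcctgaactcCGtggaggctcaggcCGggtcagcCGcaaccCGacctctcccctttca
Both were rich in CG, with 25 CG dinucleotides and a GC content of 73.5% for Sall1, and 21 CG dinucleotides and 71.0% for Sall4.

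**Figure D1:**
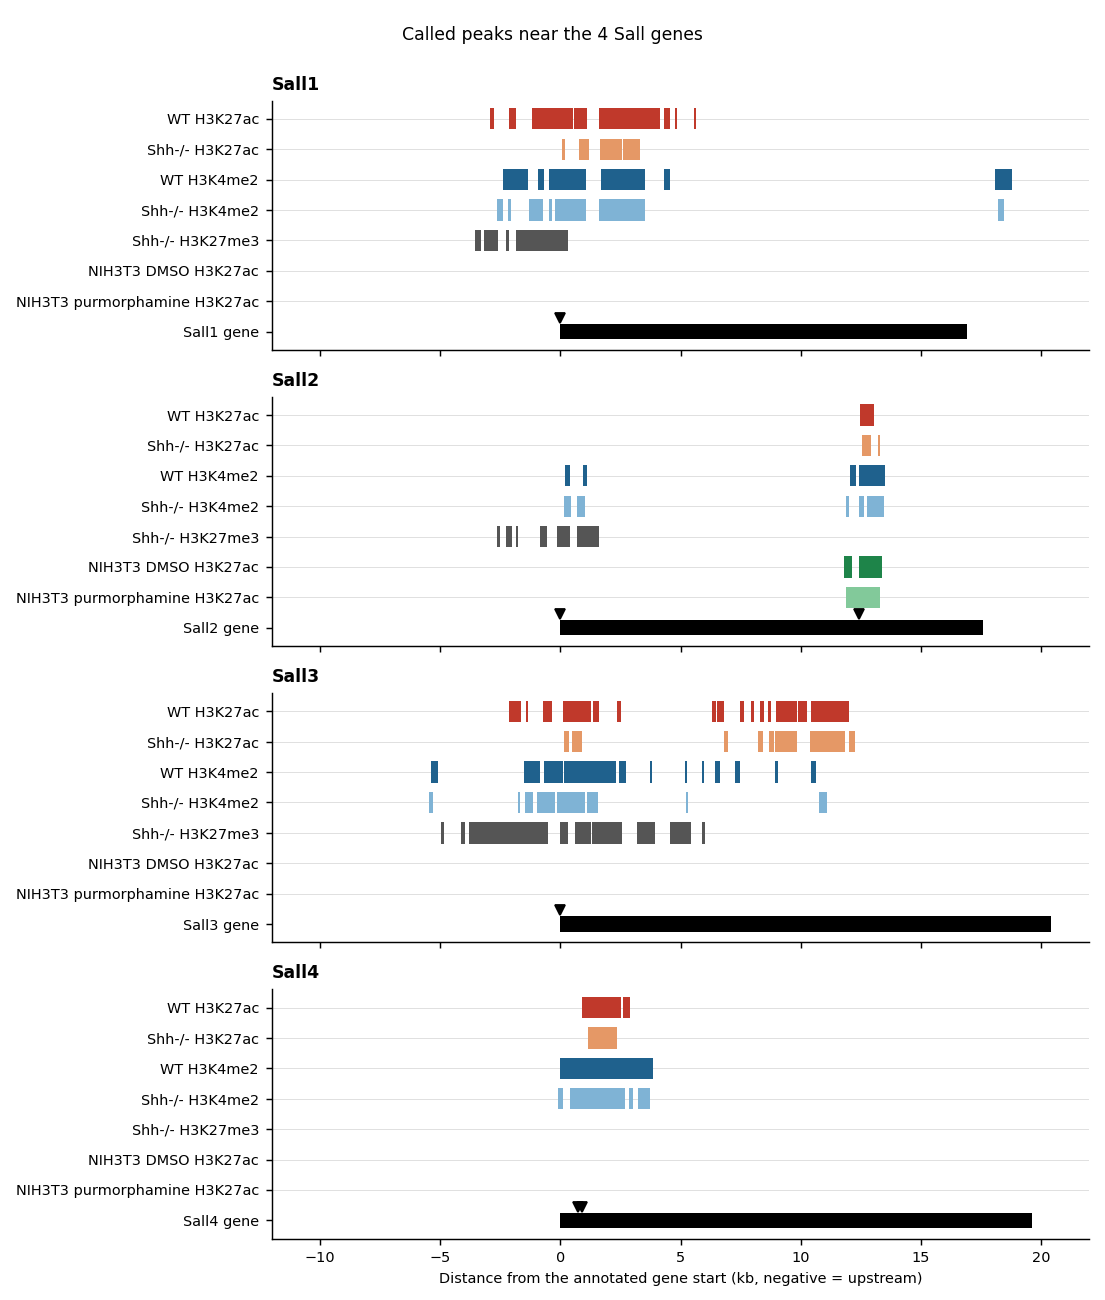
Called peaks of the 7 lists (rows, coloured by list) around each Sall gene, drawn to scale against the distance from the annotated gene start in kb (negative is upstream); the black bar is the gene and triangles are the starts of complete coding transcripts. H3K27ac covered less at Sall1, Sall3 and Sall4 in Shh-/- than in WT, the upstream start of Sall2 had H3K27me3 and no H3K27ac, and within these stretches only the internal start of Sall2 had H3K27ac in NIH3T3 cells.

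Acetylation around Sall1 was concentrated at the gene itself and was much lower in Shh-/- limb buds. All 8 WT H3K27ac peaks of the 416928 bp window lay within 20 kb of Sall1 and covered 5750 bp, against 4 peaks and 2200 bp in Shh-/-, which is 38.3% of the WT length. Over the whole lists, Shh-/- peaks covered 84.7% of the WT length. Peak strength is given as the largest ratio of ChIP over input that the authors deposited for the peak, in log2 units (log2 ratio). The best-ranked WT peak of the locus (rank 443 of 49679), at chr8:89040000-89042549, had a log2 ratio of 6.28. Its summit was intronic, but the peak also reached over an exon. The 2 counterparts of this peak in Shh-/- had log2 ratios of 3.12 and 3.67. The next peak, 0.6 kb into the gene at chr8:89043050-89043599, had a log2 ratio of 5.87 in WT and 3.93 in Shh-/-, and the peak over the start, at chr8:89043650-89045349, had 3.76 in WT and 2.69 in Shh-/-. All 3 WT peaks that kept a counterpart were thus lower by at least 1, with a median difference of -1.94.

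How unusual such losses were can be read from the whole list. Of 25606 WT H3K27ac peaks with a counterpart, 12.5% were at least 1 lower in Shh-/- and 8.38% at least 1 higher, with a median difference of -0.14. A loss as large as the 2.62 at the best-ranked Sall1 peak was found at 16 peaks (0.0625% of all). A loss as large as the 1.94 beside the Sall1 start was found at 242 (0.945%). The best-ranked WT peaks were lower more often, and in the best-ranked decile 30.2% of 4926 were at least 1 lower. Within that decile the same 2 losses were reached by 0.325% and 4.20% of peaks.

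Sall4, which encodes a factor also central to pluripotent cells, had 1 main acetylated region at the gene and several distal ones, and most were lower in Shh-/-. The best-ranked WT peak (rank 1198) reached from an intron over the coding start at 168767029, at chr2:168765400-168767049, and had a log2 ratio of 5.77. Its Shh-/- counterpart, at chr2:168765600-168766799, stopped short of that start and had 3.60, and 110 of the 25606 shared peaks (0.430%) lost as much, or 2.15% of the best-ranked decile. A smaller WT peak beside it, 2.6 kb into the gene, had no counterpart. Upstream, the WT peak at -92.4 kb had a log2 ratio of 4.93 in WT and 3.57 in Shh-/-, that at -91.6 kb had 3.98 and 2.79, and that at -104.0 kb had 4.08 and 3.00. The best-ranked WT peak of the locus without a counterpart lay at -63.4 kb and had a log2 ratio of 3.71. Downstream, an intron of Atp9a, 98.5 kb from the Sall4 start, held a WT peak of 4.06 against 3.03 in Shh-/-. Of the 9 Sall4 peaks with a counterpart, 5 were at least 1 lower and 0 at least 1 higher, with a median of -1.02. The 4 others were at the starts of Nfatc2 and Zfp64 or 148.9 kb downstream of the Sall4 start, and differed by -0.57 to 0.08.

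Sall3, at chr18:80966376-80986771 with 1 other protein-coding gene (Atp9b) in its window, had the most acetylated peaks of the family in WT, and both its start and its introns had fewer or weaker peaks in Shh-/-, with 1 strong intronic region kept. The WT peak that ended just inside the start had a log2 ratio of 5.53, and its 2 Shh-/- counterparts had 3.30 and 2.83. A fall as large as 2.23 was seen at 82 shared peaks (0.320%), which is 1.64% of the best-ranked decile of WT peaks. By contrast, the best-ranked peak of the locus (rank 912), 10.4 kb into the gene, had a log2 ratio of 5.93 in WT and 5.37 in Shh-/-, and the neighbouring intronic peak at 9.0 kb had 3.67 in WT and 3.80 in Shh-/-. These were 2 of the 4 intronic peaks with a counterpart, and the others differed by 0.32 and -0.83. The 7 remaining intronic WT peaks of 11, with log2 ratios from 2.61 to 3.82, had no Shh-/- counterpart. Just upstream of the start, a WT peak at -0.3 kb with a log2 ratio of 4.78, the best-ranked of all WT peaks at the Sall loci without a counterpart, was absent in Shh-/-, as was one at -1.6 kb with 3.95. Further upstream, between -64.9 and -67.6 kb, 1 of 3 WT peaks kept a counterpart, with 4.14 in WT and 2.64 in Shh-/-. Of the 7 Sall3 peaks with a counterpart, 2 were at least 1 lower, and the median difference was -0.55.

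Sall2 differed from the other members. Its upstream start had no H3K27ac peak in any list. A peak lay within 1 kb of the internal start in all 4 H3K27ac lists, with a log2 ratio of 4.97 in WT (chr14:52315700-52316299) and 3.83 in Shh-/- limb buds. In NIH3T3 cells it was 3.67 with DMSO and 4.21 with purmorphamine. Of 9 WT H3K27ac peaks in the crowded Sall2 window, 5 lay within 1 kb of the starts of other genes, and the best-ranked one was at Supt16, a subunit of the FACT histone chaperone, with 5.70 in WT and 5.37 in Shh-/-. The median difference of 6 shared peaks was -0.28, but 5 of the 6 lay at the starts of other genes. The only shared peak at Sall2 itself, at the internal start, differed by -1.14 and so passed the limit of 1. The 1 peak that was at least 1 higher, by 2.08, was a small WT peak beside the Supt16 start that met the broad Shh-/- peak there. A peak at -15.1 kb from the upstream Sall2 start, with a log2 ratio of 3.70, was the best-ranked Shh-/- peak at the Sall loci with no WT counterpart.

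**Figure D2:**
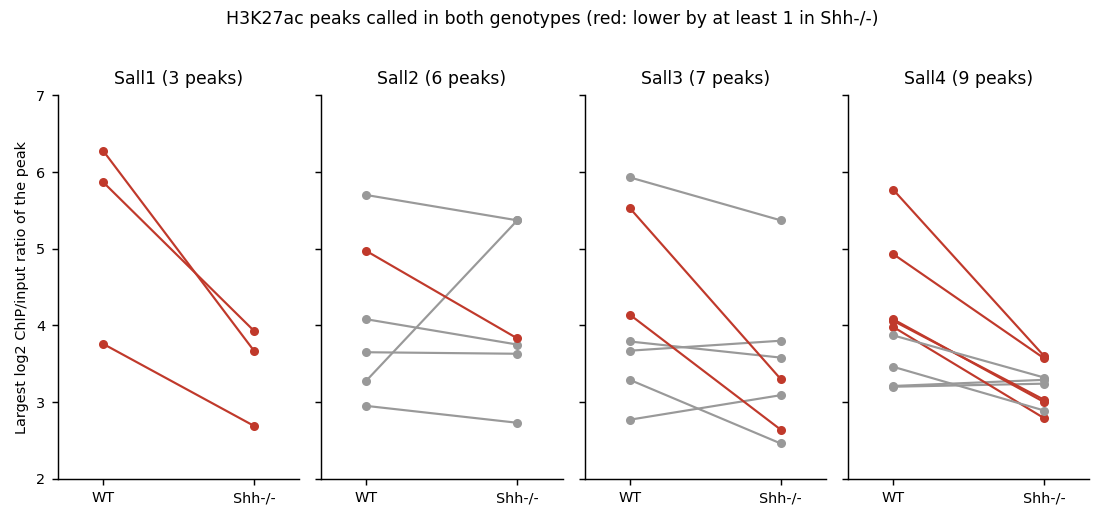
Largest log2 ratio of ChIP to input (vertical axis) of each WT H3K27ac peak at a Sall locus that overlapped a Shh-/- peak, joined to the value of that counterpart, with 3 peaks at Sall1, 6 at Sall2, 7 at Sall3 and 9 at Sall4; where several counterparts overlapped, the highest is drawn. Red lines mark the 11 peaks at least 1 lower in Shh-/-, among them all 3 at Sall1 and 5 at Sall4.

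Together, 11 of 25 shared WT peaks at the Sall loci were at least 1 lower in Shh-/- and 1 was at least 1 higher, with a median of -0.57. The backgrounds were the 12.5% and 8.38% given above. Of the 11, 4 lay close to the limit, between -1.02 and -1.14. After centring on the median of the whole list, an alternative chosen after seeing the data, 7 of 25 were at least 1 lower, against 9.28% of the whole list. In the best-ranked decile of WT peaks, 6 of 8 Sall peaks were at least 1 lower, with a median of -1.65 against -0.59 for the decile. In whole limb buds, fewer cells with an acetylated Sall gene and less acetylation per cell cannot be told apart.

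Peaks called in one genotype only were counted next. Absence from a list says only that no overlapping peak passed the authors' thresholds there. By counting reads over merged peaks, the study itself found most H3K27ac regions in both genotypes. Of 66 WT H3K27ac peaks at the Sall loci, 41 were absent from the Shh-/- list, or 62.1% (95% Wilson interval 50.1 to 72.9), against 48.5% of the whole list. The share was 5 of 8 at Sall1, 3 of 9 at Sall2, 18 of 25 at Sall3 (72.0%, 52.4 to 85.7) and 15 of 24 at Sall4. In the other direction, 10 of 38 Shh-/- peaks were absent from the WT list, or 26.3% (15.0 to 42.0), against 38.4% of the whole list. At Sall1 there were 0 such peaks among 4. Several absent peaks were narrow pieces beside a shared one. With peaks within 1 kb merged, 12 of 29 WT regions (41.4%) were absent, where the whole list had 39.7%. All 3 Shh-/- peaks at Sall3 counted as absent from WT lay directly beside a WT peak, and so did 2 of the 18 WT peaks counted as absent there. In covered length, Shh-/- H3K27ac came to 46.6% of WT at Sall3, 57.3% at Sall4 and 73.5% at Sall2.

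**Figure D3:**
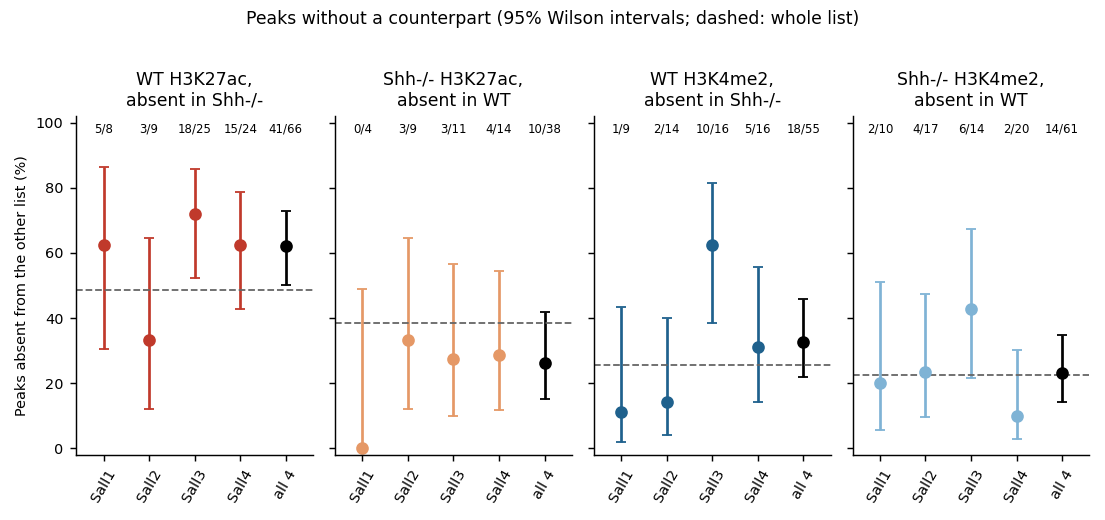
Percent of peaks at each Sall locus with no overlapping peak in the other genotype (coloured points, with 95% Wilson intervals and the counts above; black, the 4 loci together), for H3K27ac and H3K4me2; dashed lines give the share over the whole list. For WT H3K27ac the 4 loci together (41/66) lie above the dashed line at 48.5%, and for WT H3K4me2 the Sall3 point (10/16) lies above the line at 25.7%.

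H3K4me2 was stronger in Shh-/- at the starts of Sall1 and Sall4, mixed at the Sall3 start and weaker under some of the peaks that lost H3K27ac. Among the WT peaks over these starts, only the difference at Sall1 (1.22) reached the limit of 1. At the Sall1 start the H3K4me2 peak had a log2 ratio of 3.89 in WT and 5.11 in Shh-/-, where it ranked 153 of 38468. The peak under the strongest Sall1 acetylation had 4.33 in WT and 3.86 in Shh-/-. At the Sall4 start it was 3.90 in WT, in a single peak 3850 bp wide, and 4.86 in the largest of 4 Shh-/- peaks. At Sall3, the peak over the start had 4.00 in WT, and the strongest overlapping Shh-/- peak had 4.57. That Shh-/- peak lay just upstream of the start, and the Shh-/- peak over the start itself had 3.46. A second WT peak, at -0.8 kb, had 3.09 and met the same upstream Shh-/- peak, a difference of 1.48. Just inside the gene, under the Sall3 acetylation that fell by 2.23, H3K4me2 had 3.75 in WT and 3.46 in Shh-/-. At the internal start of Sall2 it had 4.14 in WT and 3.38 in Shh-/-. The upstream start of Sall2 had only weak peaks, 2.61 and 2.35 in WT and 2.69 and 2.88 in Shh-/-. Of 37 WT H3K4me2 peaks with a counterpart, 1 was at least 1 lower and 7 at least 1 higher, with a median of 0.23. The 7 were not all separate. At Supt16 (1.37 and 1.85) and at -141.0 and -141.3 kb from the Sall1 start (1.21 and 1.11), neighbouring WT peaks met the same Shh-/- peak. Another was at the Atp9a start (1.08). Over the whole list 4.19% were lower and 2866 of 27171 higher, with a median of 0.11. In the best-ranked decile of WT H3K4me2 peaks, the 5 at the Sall loci had a median of -0.47, against -0.53 for the decile. Covered length was nonetheless 75.4% of WT at Sall3, 78.4% at Sall1, 83.3% at Sall4 and 99.4% at Sall2, against 90.0% for the whole lists.

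Of the WT H3K4me2 peaks, 18 of 55 (32.7%, 21.8 to 45.9) were absent from Shh-/-, where the whole list had 25.7%. Sall3 held 10 of the 18, out of 16 peaks (62.5%, 38.6 to 81.5), and 7 of these were peaks of 100 to 300 bp in the Sall3 introns. In the other direction, 14 of 61 (23.0%) were absent from WT, against 22.5% of the whole list. The best-ranked of the WT peaks with no counterpart lay at -105.0 kb from the Sall4 start (log2 ratio 3.24), and at Sall1 a Shh-/- peak at -64.4 kb (2.99) had none in WT.

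H3K27me3 covered the starts of Sall1, Sall2 and Sall3 in Shh-/- limb buds and was not called at the Sall4 gene. The small peak over the Sall3 start itself (log2 ratio 2.44) had an FDR of 0.072, and 23 of the 34 H3K27me3 peaks at the Sall loci had an FDR under 0.05. At Sall1, the widest peak of the locus (2150 bp, log2 ratio 3.60) crossed the start, at chr8:89043850-89045999, and a second cluster lay 36.8 to 38.2 kb downstream of the start. At Sall2, peaks at chr14:52327150-52328049 and chr14:52328350-52328899 (log2 ratios 3.14 and 3.45) lay at the upstream start and none at the internal one. Sall3 carried the widest peak of the family, 3250 bp with a log2 ratio of 4.25 (rank 769 of 20830), directly upstream of its start, and 9 peaks covering 7550 bp within 20 kb of the gene. At Sall4, the only H3K27me3 within 20 kb of the gene was a 100 bp peak near the Atp9a start, and the widest peak of the locus lay in an intron of Zfp64, at -142.9 kb. H3K27me3 in WT limb buds was not analysed here, so these peaks cannot be compared between genotypes.

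H3K27me3 and H3K4me2 overlapped at the Sall loci. Of 34 H3K27me3 peaks, 17 overlapped a Shh-/- H3K4me2 peak, or 50.0% (34.1 to 65.9), against 20.1% of the whole list. By member it was 4 of 7 at Sall1, 2 of 8 at Sall2, 5 of 10 at Sall3 and 6 of 9 at Sall4. Those 6 lay at the Nfatc2 starts or in a Zfp64 intron, and none at the Sall4 gene. Leaving Sall4 out, the share was 11 of 25 (44.0%). A Shh-/- H3K27ac peak overlapped 4 of 34 (11.8%, 4.67 to 26.6), of which 2 were at Sall3, 1 at the Sall1 start and 1 at Nfatc2, while the whole list had 1.91%. In the better-ranked 50% of each list, H3K4me2 overlapped 4 of 23 H3K27me3 peaks (17.4%), below the 24.3% of the whole list, while with an FDR under 0.05 in both lists the share was 56.5% against 32.4%. With at least 50% of the H3K27me3 peak required to be covered, H3K4me2 was on 7 of 34 (20.6%, against 10.3% of the whole list) and H3K27ac on 0 of 34 (1.37%). Peaks at the Sall loci were wider than most, with a median of 325 bp against 150 bp over the whole H3K27me3 list, and the part of width in the overlap was not tested. Whether the marks lay on the same chromosomes or in different cells of the bud cannot be told apart.

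**Figure D4:**
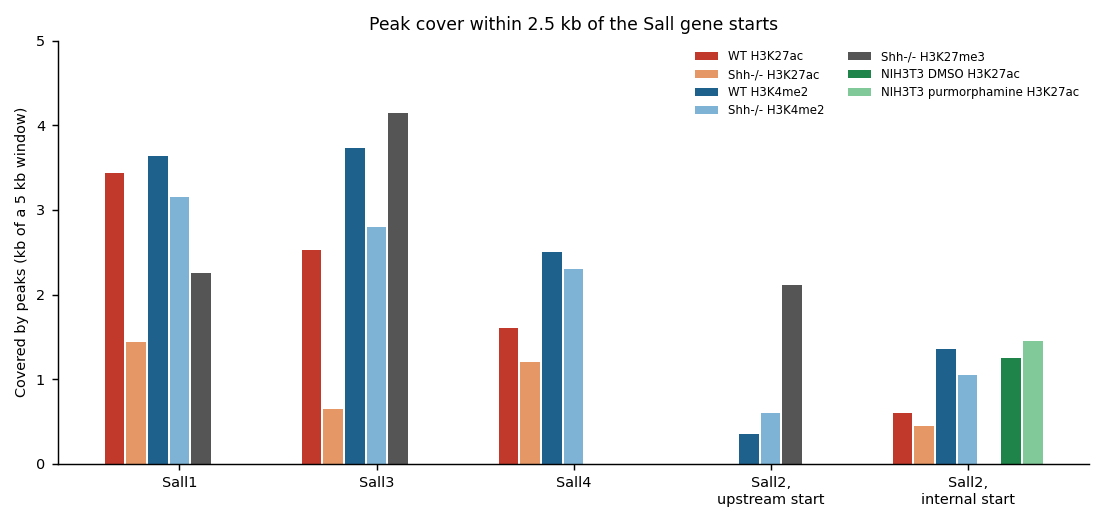
Length covered by the peaks of each of the 7 lists (bars, in kb) within 2.5 kb on either side of the annotated gene starts of the Sall genes and of the internal start of Sall2. The WT and Shh-/- bars for H3K27ac stand at 3438 and 1438 bp for Sall1 and at 2529 and 650 bp for Sall3, and NIH3T3 bars are present at the internal Sall2 start alone.

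Cover was also measured within 2.5 kb on either side of each annotated gene start. In WT, H3K27ac covered 3438 bp at Sall1, more than at 99.2% of 21911 protein-coding genes, 2529 bp at Sall3 (98.0%) and 1607 bp at Sall4 (92.9%). In Shh-/- the values were 1438 bp at Sall1 (93.0%), 650 bp at Sall3 (78.4%) and 1200 bp at Sall4 (90.0%). The Sall4 values depended on the window, which is centred on the 5′ end upstream of its coding starts. With 1 kb on either side, H3K27ac at Sall4 covered 107 bp in WT (more than at 60.5% of genes) and 0 bp in Shh-/-. H3K27me3 covered 4151 bp at Sall3, which was 83.0% of the 5001 bp window, 2250 bp at Sall1 (more than at 96.2% of genes), 2113 bp at Sall2 (95.9%) and 0 bp at Sall4. H3K4me2 in WT covered 3729 bp at Sall3, 3638 bp at Sall1, 2507 bp at Sall4 and 350 bp at Sall2. By a distance that sums the absolute differences in covered length over the 7 lists, the 5 genes most like Sall1 were Hs3st3b1, Zic2, Hand2, Robo2 and Sall3, at 2757 to 4040 bp. Those most like Sall3 were Zic5, Tbx2, Sall1, Tmem132e and Hand2, at 3885 to 4218 bp. Sall2 had closer neighbours, Dbx2, Slitrk1, Kdf1, Epha10 and Nlrp6, at 173 to 240 bp. Sall4 was followed by Fbxl7, Pde5a, Hoxb4, F930015N05Rik and Hs3st3a1, at 507 to 971 bp. With 1 kb on either side, Sall1 was the gene nearest to Sall3, at 1337 bp, but the gene nearest to Sall1 was Hand2, at 788 bp.

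In NIH3T3 cells the family was mostly outside the acetylated chromatin. No H3K27ac peak was called in the whole Sall1 window in either treatment, and none within 20 kb of Sall3 or Sall4. A missing peak says only that none passed the authors' thresholds. Of the 66 WT limb peaks at the Sall loci, 10 overlapped a peak of NIH3T3 cells with DMSO, or 15.2% (8.44 to 25.7), against 38.2% of the whole list, and 7 of the 10 were at Sall2. Leaving Sall2 out, 3 of 57 (5.26%) did. After purmorphamine, 2 of 17 peaks at the Sall loci were absent from the DMSO list (11.8%, against 36.5% of the whole list), and both were at the starts of Rab2b and Tox4 in the Sall2 window. Of 21 DMSO peaks, 9 were absent after purmorphamine (42.9%, 24.5 to 63.5), against 41.1% of the whole list. These were 6 of 7 at Sall3, all between 41.2 and 53.5 kb downstream of the Sall3 start, 3 of 5 at Sall4, and 0 of 9 at Sall2. Among 12 DMSO peaks with a counterpart, 0 were at least 1 lower (2.64% of the whole list) and 1 was at least 1 higher (12.3%), namely the small peak beside the internal Sall2 start, which met the broader purmorphamine peak. The median difference was 0.33, against 0.15 for the whole list.

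**Figure D5:**
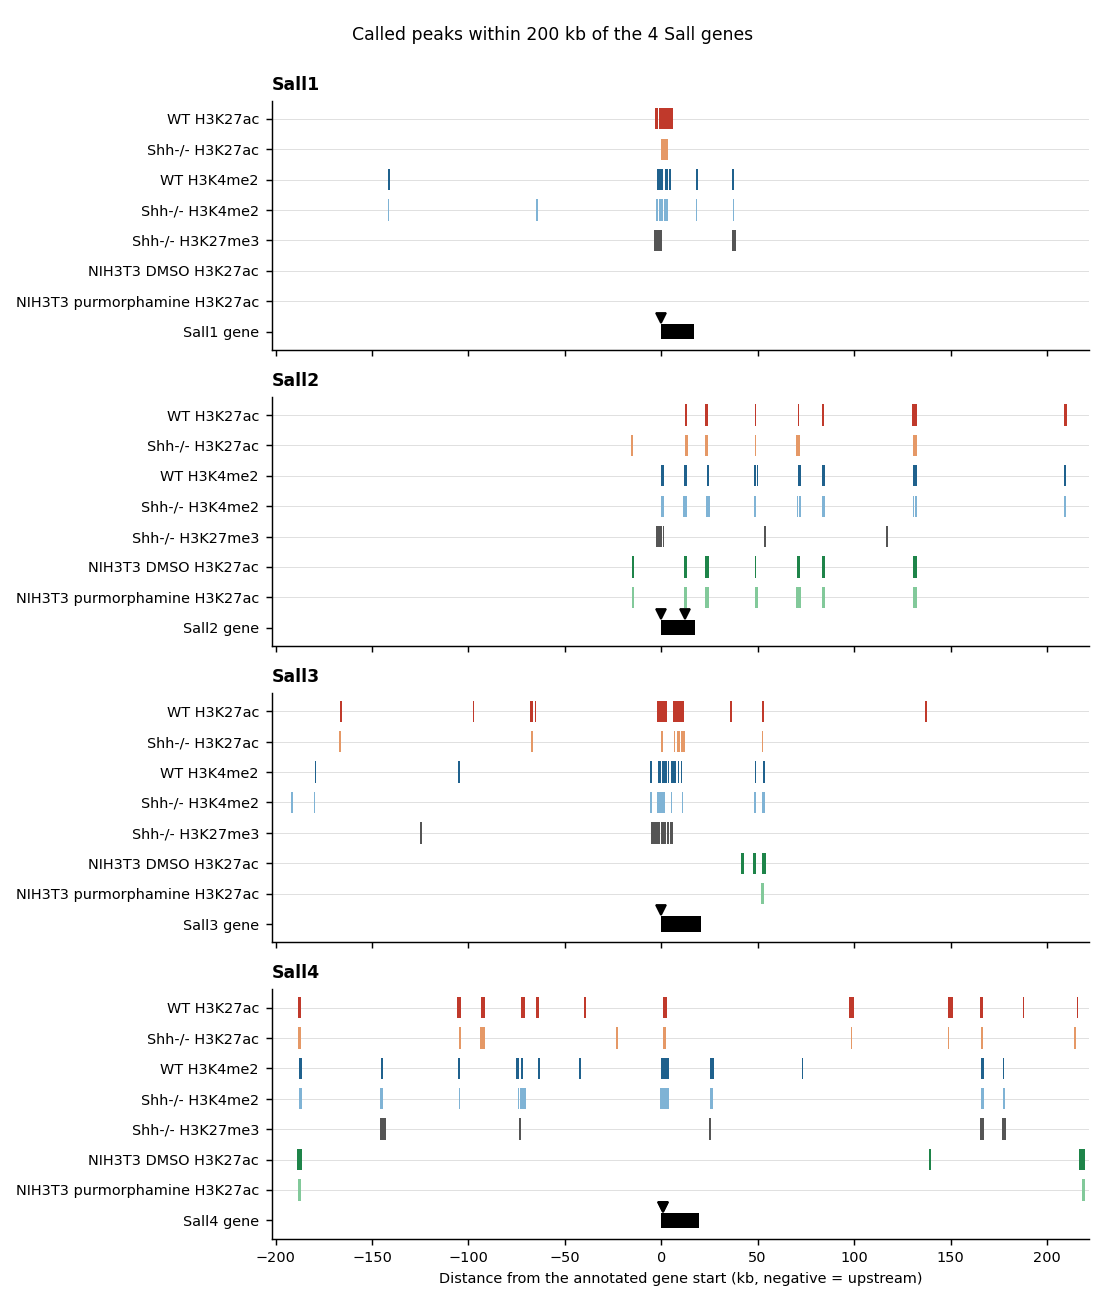
All 292 peaks at the Sall loci by list, against the distance from each gene start in kb (negative is upstream, black bar the gene); peaks narrower than 0.8 kb are drawn 0.8 kb wide so that they can be seen. WT H3K27ac at Sall1 (8 peaks) stays at the gene, at Sall3 (25) and Sall4 (24) it also lies at distal sites, and NIH3T3 peaks lie in the Sall2 window, between 41.2 and 53.5 kb downstream of the Sall3 start and at least 139.1 kb from the Sall4 start.

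GLI factors carry out the transcriptional response to Hedgehog, and their consensus site, GACCACCCA, was searched on both strands without mismatch. It was found in 0 of the 292 peaks. With the whole lists at 0.401% (WT H3K27ac), 0.266% (Shh-/- H3K27ac), 0.620% (WT H3K4me2), 0.502% (Shh-/- H3K4me2) and 0.528% (H3K27me3), and at 0.725% (purmorphamine) and 0.592% (DMSO) in NIH3T3 cells, matches were rare throughout. Of 32851 RefSeq promoters of 300 bases, 0.253% held the site. The 4 windows held 13 matches, 4 at Sall1, 1 at Sall2, 2 at Sall3 and 6 at Sall4, and no peak lay over any of them. The match nearest to a WT H3K27ac peak at Sall1 and at Sall4 is shown with 20 bases on either side, on the strand of the match (GRCm38.p6, minus strand in both), with the consensus in capitals, at chr8:89064327-89064375 and chr2:168811161-168811209.
Sall1 upstream match: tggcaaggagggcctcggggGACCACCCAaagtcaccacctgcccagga
Sall4 upstream match: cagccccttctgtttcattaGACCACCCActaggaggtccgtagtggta
The Sall1 match lay 17248 bp and the Sall4 match 3532 bp from the nearest WT H3K27ac peak. The closest of the 13 matches to such a peak was at Sall3, at 2408 bp, and is not shown. The letters of a match alone say nothing of whether a GLI factor was bound.

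Genes that act with the Sall proteins were set beside the family at their starts. All 13 NuRD subunits had H3K27ac and H3K4me2 at their starts in every list of these marks, among them the deacetylases Hdac1 and Hdac2 and the remodeller Chd4, and 0 of 13 had H3K27me3. For comparison, H3K27ac stood at 41.4% of all protein-coding starts in WT and 38.5% in Shh-/- limb buds, at 50.7% in NIH3T3 cells with DMSO and 50.8% with purmorphamine. H3K4me2 stood at 61.2% in WT and 60.7% in Shh-/-, and H3K27me3 at 12.2%. A start was here the stretch from 2 kb before to 1 kb after the annotated gene start. Between genotypes, 1 of the 13 NuRD genes, Chd4, was at least 1 lower in H3K27ac (3.79 in WT, 2.75 in Shh-/-), and the median difference of the 13 was -0.47, where 8010 starts acetylated in both genotypes had 18.3% at least 1 lower and a median of -0.35. Of 12 limb bud genes linked to Sall1 or Sall4, 8 had H3K27ac at the start in WT and 6 in Shh-/-. The digit genes Hoxd13 (3.14 in WT) and Grem1 (3.30 in WT) had none in Shh-/-. Tbx5, the forelimb partner of Sall4, went from 7.00 to 5.93, and Irx5 from 3.90 to 5.09. The median over the 6 genes with both peaks was 0.22. H3K27me3 was present at 10 of the 12. In the same window Sall1 went from 5.87 to 3.93 and Sall3 from 5.53 to 3.30, while the Shh-/- peak of Sall4 fell outside the window because it ended further inside the gene.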

How the data were processed

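ChIP-seq peak lists of 7 conditions were used (14 immunoprecipitation libraries, 2 per condition, and 10 inputs), with groups taken from the sample labels. The authors aligned reads to mm10 (Bowtie2 2.2.5 in the submitters' processing notes) and called peaks against input with CisGenome on both replicates together. For each peak the authors deposited a rank, a position, a length, an FDR (a q-value), a score (the largest statistic of ChIP against input, at least 3.00 in all lists), the maximum of the log2 ChIP/input ratio, and −log10 of the smallest Poisson p-value (at least 5.00). The highest FDR of a list ranged from 0.00081 to 0.255. The log2 ratio, rank and FDR were used as deposited. Log2 ratios of 2 lists also depend on the depth and the input of each library, which the lists do not give. The files do not say whether starts count from 0 or 1, so positions may be 1 bp off.

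Peaks were assigned with GENCODE M21 (basic, mm10) in Python 3.11.15 with numpy 2.4.6 and pandas 2.3.3. A counterpart overlapped by at least 1 bp, which was tested on simulated data and checked with bedtools 2.31.1. If several overlapped, the highest log2 ratio was taken. A difference of at least 1 (log2) was called. Intervals are 95% Wilson intervals (scipy 1.17.1).

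The members, the NuRD, limb and marker lists and the tests were chosen with earlier results of these data known. Peaks were named if they lay over a member's start, were the best-ranked of a list at a locus, or the best-ranked without a counterpart, or were the widest H3K27me3 peak. Other peaks described were chosen after their values were seen. No sequence is given for Sall3. The alternatives are listed in the closing section, and those for the log2 differences were chosen after seeing the data.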

Additional observations from a re-analysis of the deposited data

How the results depend on the processing

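No paired analysis was possible because the replicates of each condition were pooled into 1 list. Of 108 alternative values of the 9 shares, 88 stayed within the Wilson interval of the reported value and 20 did not. With an overlap of at least 50%, the share absent was 74.2% for WT H3K27ac (58.9% over the whole list) and 49.1% for WT H3K4me2 (35.3%), and H3K27me3 peaks were overlapped by H3K4me2 in 20.6% (10.3%) and by H3K27ac in 0% (1.37%). With gaps of up to 500 bp counted as shared, 45.5% of WT H3K27ac (30.5% over the whole list) and 6.56% of Shh-/- H3K4me2 peaks (4058 of 38468 over the whole list) were absent. With peaks within 1 kb merged, WT H3K27ac was at 41.4% (39.7% over the whole list), purmorphamine at 0% (27.4%), DMSO at 23.1% (29.4%) and the overlap of WT H3K27ac with NIH3T3 cells at 27.6% (43.5%). Keeping the better-ranked 50% of each list, DMSO was at 15.4% (30.4% over the whole list) and H3K27me3 under H3K4me2 at 17.4% (24.3%). Without peaks at other genes' starts, WT H3K4me2 was at 47.2%, purmorphamine at 0% and the overlap with NIH3T3 cells at 4.08%. Without Sall2, purmorphamine was at 0%, DMSO at 75.0% and the overlap with NIH3T3 cells at 5.26%. Without Sall3, WT H3K4me2 was at 20.5% and DMSO at 21.4%. Where other genes' starts or a member were left out, this was done at the Sall loci only. The whole lists stay at 25.7% for WT H3K4me2, 36.5% for purmorphamine, 41.1% for DMSO and 38.2% for the overlap with NIH3T3 cells. An FDR under 0.05 and flanks of 100 or 50 kb moved no share out of its interval.

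As reported, 11 of 25 shared WT H3K27ac peaks were at least 1 lower (12.5% over the whole list). The count was 7 of 25 after centring (9.28%) and 8 of 17 with peaks merged (14.6%). Without other genes' starts it was 9 of 14. Those starts were left out at the Sall loci only, so the whole list stays at 12.5%. Counting all coding starts, Sall2 had cover in 7 lists and not in 3. With 1 kb on either side, 2 of the 5 genes most like Sall1, 1 for Sall3, 0 for Sall2 and 0 for Sall4 recurred. The cause of these shifts was not tested. Wide intervals at single loci, of 8 to 25 WT H3K27ac peaks, limit all comparisons between members.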
